A study of Homo sapiens with 2 samples.

Results

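The respiratory chain genes examined here encode nuclear subunits of complexes I to IV, the enzymes of the inner mitochondrial membrane that pass electrons from NADH and succinate to oxygen. Members were the genes whose symbol named a subunit of complex I (NDUFA, NDUFB, NDUFC, NDUFS, NDUFV and NDUFAB), complex II (SDHA to SDHD), complex III (CYC1 and 8 named UQCR genes) or complex IV (10 named COX genes), read by probe sets that the platform's table assigns to 1 gene only. They came to 53 of 19775 genes on the array, with 107 of 41091 such probe sets: 33 genes of complex I, 3 of complex II, 7 of complex III and 10 of complex IV. Of 60 symbols in the RefSeq table that match this rule, 4 were found only in probe sets assigned to several genes and 3 were not analysed here. The gene long called NDUFA4, whose product belongs to complex IV, now has the symbol COXFA4 and so was no member. Its signal was 12429 in GAS2DN and 11907 in Venus cells.
The samples were MEG-01 cells, an established megakaryoblastic line from chronic myeloid leukemia (CML), transduced with a lentivirus for GAS2DN, the dominant negative form of growth arrest specific 2, or with the control lentivirus, which carries the fluorescent protein Venus. Transduced cells were sorted by flow cytometry, RNA from 3 independent extracts per condition was pooled in equal amounts, and each pool was hybridised to 1 Affymetrix Human U133 plus2.0 array. Each condition thus had a single array, so that ratios carry no error between replicates and were not tested, and their precision is limited by how few arrays there are. Both conditions share 1 cell line, and fewer cells of a kind and less RNA per cell cannot be told apart in such bulk RNA. GAS2 itself had a signal of 34.7 in GAS2DN and 24.3 in Venus cells, both below the median of their arrays, and whether its probe set reads the GAS2DN construct was not tested.

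Values are MAS5 signals, the brightness summary of a probe set, which the authors scaled to the same 2% trimmed mean on both arrays. Log2 ratios are GAS2DN minus Venus. The median signal of all probe sets was 69.1 on the GAS2DN and 55.6 on the Venus array. A probe set was called eligible when the brighter of its signals reached its array's median. The main probe set was the brightest one of its gene, with names ending in _x_at (probes that can read other genes) passed over where the gene had another. A gene was called measured when its main probe set was eligible, as for 13086 genes. Of 9 megakaryocyte markers, 8 had a probe set of their own and 6 of these were eligible, including ITGA2B with 9238 in GAS2DN and 7149 in Venus cells, while the chemokine PF4 was below the median on both arrays with 25.9 in GAS2DN and 40.8 in Venus cells. Markers of other cell types had signals of at most 275. Their sum was 169 in GAS2DN and 100.3 in Venus cells for T cells (3 genes), 256 in GAS2DN and 206 in Venus cells for B cells (2 genes), 263 in GAS2DN and 280 in Venus cells for monocytes (2 genes) and 139 in GAS2DN and 103 in Venus cells for fibroblasts (3 genes), among which COL3A1 had 1.86 in GAS2DN and 42.1 in Venus cells. As a sign of RNA quality, signals of the 3' over the 5' end of ACTB gave 2.17 on the GAS2DN and 2.32 on the Venus array, and those of GAPDH 1.02 on the GAS2DN and 1.01 on the Venus array.

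Complex I oxidises NADH, complex II oxidises succinate as part of the citric acid cycle, complex III passes electrons from ubiquinol to cytochrome c, and complex IV hands them to oxygen. Complexes I, III and IV pump protons, and ATP synthase uses the gradient. The mitochondrial genome encodes the catalytic core of complexes III and IV in part and the hydrophobic core of complex I, while all subunits of complex II are nuclear. Nuclear subunit genes are known for promoters with sites of nuclear respiratory factor 1 (NRF1), of ETS family factors such as GABPA (also called NRF2) and of YY1.

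All 53 members were measured, and each had both signals far above its array's median, so that no member passed the filter through 1 array alone. The main probe sets ranged in geometric mean signal of both arrays between 1736 and 32080 with a median of 9781, against 610 over all measured genes, and 45 of the 53 were among the brightest 10% of measured genes. Brightness also depends on the probes, so a brighter signal is not read as more RNA of 1 gene than of another. In GAS2DN cells 42 members had a signal above that in Venus cells and 11 a signal below it, which makes 79.2% higher against 56.2% of all measured genes and 61.3% of the brightest 10%. The log2 ratios lay between -0.36 and 0.69, with a median of 0.15 (SD 0.19 over 53 genes), a ratio of 1.11. All measured genes had a median of 0.06, and the 1309 genes of the brightest 10% had 0.06 as well. Above the median of all measured genes lay 40 members, which is 75.5% of them, against a background of 50% of all measured genes and 49.9% of the brightest 10%. When both arrays were centred on the median of all probe sets the whole scale shifted down, to -0.16 for the members and -0.26 for all measured genes, and 5 of the 53 members were then above 0, while after quantile normalization 42 and after loess 39 were. Counts above 0 therefore hold for the authors' scaling, and the count above the median of all measured genes is given beside them for each complex and list.

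**Figure D1:**
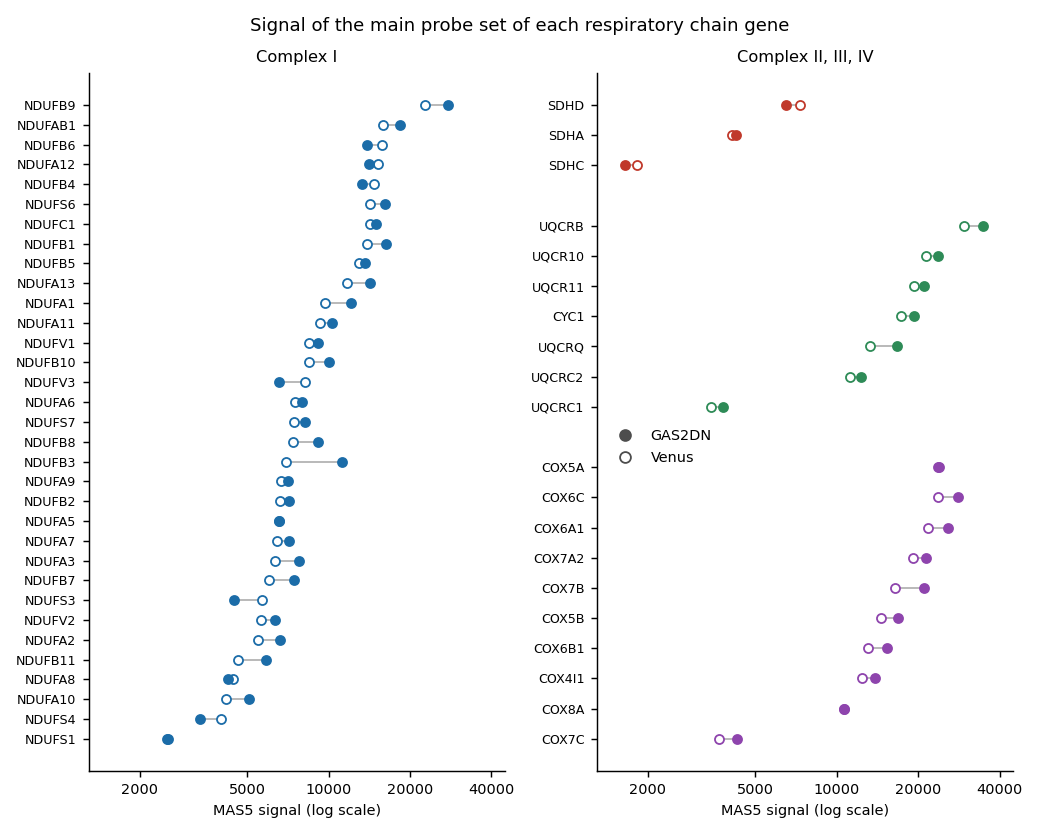
Signal of the main probe set (log axis, MAS5 units) of each of the 53 respiratory chain genes in GAS2DN (filled circles) and Venus cells (open circles), 1 array each, with complex I on the left and complexes II, III and IV on the right. Most filled circles lie just right of the open ones, NDUFB3 shows the widest gap with 11253 in GAS2DN and 6971 in Venus cells, and the filled circles of NDUFS3, NDUFV3 and NDUFS4 lie to the left.

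Changes were small. Only NDUFB3 was over 1.5-fold higher in GAS2DN cells by the main probe set, 1 of 53 members against 14.3% of all measured genes and 0.229% of the brightest 10%. No member was over 1.5-fold lower, against 9.12% of all measured genes and 1.91% of the brightest 10%. These are counts of size without a test. Bright probe sets of 1 gene also differed among themselves. In the 12 members with at least 2 probe sets of a signal of 1000 or more on both arrays, the SD of the log2 ratio between probe sets of 1 gene was 0.22 (29 probe sets), and 0.25 over all genes of this kind.

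To show what the promoters of members at both ends of the range hold, 3 sets of letters were searched on both strands in windows of 300 bases (250 before and 50 after the start of the gene) from RefSeq, GRCh38.p14. A window was found for 47 of the 53 members. The NRF1 letters GCGCANGCG occurred in 15 of these (31.9%), against 11% of 15842 windows of protein-coding genes. The ETS letters CCGGAAG occurred in 13 (27.7%), against 14.2%, and the YY1 letters AAGATGGC in 7 (14.9%), against 3.91%. No match of 1 motif overlapped that of another in the members. At least 1 motif was found in 28 members, whose median log2 ratio was 0.14, and none in 19, with a median of 0.17. A match is only a run of letters, and no binding was measured. The last 150 bases before the start follow, 5' to 3', for the highest member of all and for 2 members with an ETS match and a high ratio, then for the lowest of all, for a complex II gene with a low ratio and for a complex III gene with matches of both motifs. Capitals mark the matches.
NDUFB3: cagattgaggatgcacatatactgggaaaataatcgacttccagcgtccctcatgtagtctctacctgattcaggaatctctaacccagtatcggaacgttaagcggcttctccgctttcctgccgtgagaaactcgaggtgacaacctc
NDUFA1: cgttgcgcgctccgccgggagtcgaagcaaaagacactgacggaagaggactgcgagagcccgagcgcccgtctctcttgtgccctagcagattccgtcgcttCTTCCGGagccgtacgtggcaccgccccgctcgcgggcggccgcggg
UQCRQ: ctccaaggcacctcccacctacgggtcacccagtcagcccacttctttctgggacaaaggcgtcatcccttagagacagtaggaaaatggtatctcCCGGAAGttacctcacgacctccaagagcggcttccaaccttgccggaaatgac
NDUFS3: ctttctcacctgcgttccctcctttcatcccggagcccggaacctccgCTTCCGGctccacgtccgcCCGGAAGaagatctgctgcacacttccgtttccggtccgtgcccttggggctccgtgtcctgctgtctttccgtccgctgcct
SDHD: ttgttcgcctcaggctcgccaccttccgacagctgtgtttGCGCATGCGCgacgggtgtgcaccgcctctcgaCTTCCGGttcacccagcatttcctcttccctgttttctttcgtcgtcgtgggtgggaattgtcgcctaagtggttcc
UQCR11: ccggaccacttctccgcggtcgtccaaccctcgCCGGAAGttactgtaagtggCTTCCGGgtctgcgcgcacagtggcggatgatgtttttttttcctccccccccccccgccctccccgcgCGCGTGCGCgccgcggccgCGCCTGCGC
These windows lie at chr2:201071851-201072000 (plus strand) for NDUFB3, chrX:119871682-119871831 (plus strand) for NDUFA1, chr5:132866492-132866641 (plus strand) for UQCRQ, chr11:47578924-47579073 (plus strand) for NDUFS3, chr11:112086723-112086872 (plus strand) for SDHD and chr19:1605463-1605612 (minus strand) for UQCR11. NDUFB3, with the highest ratio, had none of the 3 motifs in its window. NDUFS3, with the lowest, had ETS matches on opposite strands that start 102 and 83 bases before the gene, and SDHD had NRF1 letters on both strands that start 110 bases and an ETS match that starts 77 bases before the gene. The ETS matches of NDUFA1 and UQCRQ start 47 and 54 bases before the gene, so that the same letters stood in front of members with ratios on both sides of 0.

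Complex I was the most varied. Of its 33 measured genes 25 had a log2 ratio above 0 and 24 one above the median of all measured genes, the median was 0.14 and the SD 0.22. The highest was NDUFB3, an accessory subunit of the membrane arm, with a signal of 11253 in GAS2DN and 6971 in Venus cells, a log2 ratio of 0.69. It was read by 1 probe set, whose name ends in _s_at (probes shared by several transcripts), so no second probe set could be set beside it. NDUFB11, also of the membrane arm, had 5893 in GAS2DN and 4606 in Venus cells, a log2 ratio of 0.36. NDUFA1, a small X-linked membrane arm subunit needed for assembly, had 12108 in GAS2DN and 9662 in Venus cells, a log2 ratio of 0.33. NDUFB8, NDUFB7, NDUFA3, NDUFB9, NDUFA13 and NDUFA10, all of the membrane arm, followed with log2 ratios between 0.28 and 0.31. NDUFB8 had 0.03 in a second bright probe set, though, and 0.06 in a dim one. In dim eligible probe sets NDUFB7 had -0.73, and NDUFA10 had 0.24 and 0.50.

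The lowest members of complex I were parts of the peripheral arm, which reaches into the matrix and holds the NADH site. NDUFS3, a core subunit of the module that reduces the quinone, had 4451 in GAS2DN and 5694 in Venus cells, a log2 ratio of -0.36, the lowest of all members. A probe set assigned to both NDUFS3 and PTPMT1, and so left out of the members, went the other way. It had 1583 in GAS2DN and 1502 in Venus cells, a log2 ratio of 0.08. NDUFV3, an accessory subunit beside the NADH site, had 6531 in GAS2DN and 8158 in Venus cells, a log2 ratio of -0.32, and its second, dimmer probe set gave -0.34. NDUFS4, an accessory subunit whose loss in people causes Leigh syndrome, had 3334 in GAS2DN and 4009 in Venus cells, a log2 ratio of -0.27. Centring on the median lowered the ratios of all genes, with a median of -0.26 over all measured genes. NDUFS3 and NDUFV3 then had -0.67 and -0.63, and NDUFB3 was at 0.38.

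Of the other measured catalytic core subunits, 3 had somewhat higher signals in GAS2DN cells and NDUFS1 had nearly equal ones. NDUFV1, which binds NADH and the flavin, had 9175 in GAS2DN and 8480 in Venus cells, a log2 ratio of 0.11. NDUFV2, an iron-sulfur subunit, had 6320 in GAS2DN and 5631 in Venus cells, a log2 ratio of 0.17. NDUFS7, which holds the cluster next to the quinone, had 8159 in GAS2DN and 7480 in Venus cells, a log2 ratio of 0.13. NDUFS1, the largest iron-sulfur subunit, had 2538 in GAS2DN and 2531 in Venus cells, a log2 ratio of 0.00. The 5 measured core subunits thus had a median of 0.11, and 3 of them were above the median of all measured genes. The core subunit NDUFS8 is not among them, since all its probe sets were assigned to several genes. These were slightly lower in GAS2DN cells, with log2 ratios of -0.06, -0.04 and -0.06. The brightest had 10058 in GAS2DN and 10374 in Venus cells.

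Divided by position after the values were seen, the 18 measured membrane arm subunits had a median log2 ratio of 0.26, with 15 above 0 and 15 above the median of all measured genes, and the 14 of the peripheral arm had 0.08, with 9 above 0 and 8 above that median. NDUFAB1, the mitochondrial acyl carrier protein found in both arms, was left out of this division and had 18341 in GAS2DN and 15959 in Venus cells. The arms overlapped widely: NDUFB6 and NDUFB4 of the membrane arm had -0.18 and -0.16, and NDUFA2 of the peripheral arm had 0.26. No test was made of the difference.

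Complex II, the succinate dehydrogenase that also serves the citric acid cycle, had 1 of 3 genes above 0 and above the median of all measured genes. SDHD, a membrane anchor of the quinone site, had 6471 in GAS2DN and 7326 in Venus cells, a log2 ratio of -0.18. SDHC, the other anchor, had 1652 in GAS2DN and 1824 in Venus cells, a log2 ratio of -0.14. SDHA, the flavoprotein that oxidises succinate, had 4251 in GAS2DN and 4079 in Venus cells, a log2 ratio of 0.06. This came from a probe set ending in _x_at, the only one assigned to SDHA alone. Another, assigned to several genes with SDHA among them, had 1940 in GAS2DN and 1973 in Venus cells, a log2 ratio of -0.02. The median of the 3 genes was -0.14, which is the value of SDHC itself. The bright extra probe sets of SDHC went both ways. Its brightest had a log2 ratio of 0.24 and another -0.07, both ending in _x_at, and 1 ending in _s_at had -0.03. The direction of SDHC was thus not settled, nor was the place of complex II among the complexes. With the 0.24 in place of the main probe set, the median of complex II would be that of SDHA, 0.06.

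In complex III all 7 measured genes had a higher signal in GAS2DN cells, within a narrow range of 0.12 to 0.33 and a median of 0.15, and all 7 were above the median of all measured genes. UQCRQ, a small subunit, had 16736 in GAS2DN and 13322 in Venus cells, a log2 ratio of 0.33. UQCRB, named for its binding of ubiquinone, had 34851 in GAS2DN and 29530 in Venus cells, a log2 ratio of 0.24. CYC1, cytochrome c1, which hands electrons to cytochrome c, had 19326 in GAS2DN and 17307 in Venus cells, a log2 ratio of 0.16. The core proteins UQCRC1 and UQCRC2 had 0.15 each, and the small subunits UQCR10 and UQCR11 had 0.14 and 0.12. This held for the main probe sets only. UQCRC2 had a second bright probe set with 4711 in GAS2DN and 8166 in Venus cells, a log2 ratio of -0.79, the widest split between bright probe sets of 1 member, against 12332 in GAS2DN and 11144 in Venus cells for its main probe set. UQCRB had -0.19 in a second bright probe set ending in _x_at, with 25257 in GAS2DN and 28811 in Venus cells, and 0.03 in another one. UQCR10 and UQCR11 had -0.30 and -0.09 in their dimmer ones. By the brightest eligible probe set other than the main one, the 4 genes that had one gave a median of -0.24.

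Complex IV had a median of 0.22, with 9 of 10 genes above 0 and 8 above the median of all measured genes. This was the highest median of the 4 complexes in the authors' scaling, but after quantile normalization complex IV had 0.10 and complex I 0.12. COX7B, a small structural subunit, had 20990 in GAS2DN and 16453 in Venus cells, a log2 ratio of 0.35, though its dimmer probe set gave -0.27. COX6A1, the ubiquitous form of a regulatory subunit, had 25838 in GAS2DN and 21675 in Venus cells, a log2 ratio of 0.25. COX6C had 27977 in GAS2DN and 23698 in Venus cells, a log2 ratio of 0.24. COX6B1, COX7C and COX5B lay at 0.24, 0.22 and 0.22, and COX4I1 and COX7A2 at 0.16 and 0.15. COX5A had 23898 in GAS2DN and 23725 in Venus cells, a log2 ratio of 0.01, though 0.38 in a dimmer probe set. COX8A had 10620 in GAS2DN and 10630 in Venus cells, the lowest of the complex with a log2 ratio of 0.00. In COX4I1, COX5B and COX7C the other bright probe sets, all ending in _x_at, were higher in GAS2DN cells too, with log2 ratios between 0.14 and 0.45.

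**Figure D2:**
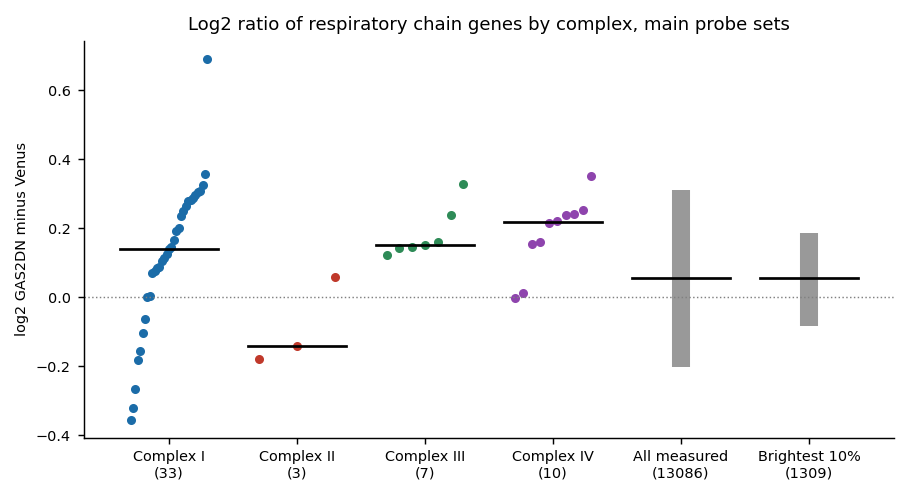
Log2 ratio (GAS2DN minus Venus) of the main probe set of each member by complex (points, in order of ratio), with the number of genes in brackets and the median as a black line. Grey bars span the middle 50% of all measured genes and of the brightest 10%. Medians are 0.14, -0.14, 0.15 and 0.22 for complexes I to IV and 0.06 for both backgrounds.

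Across all 107 probe sets the ratio spread widened as the signal fell. The 17 extra probe sets with signals of at least 1000 on both arrays, from 12 members, had log2 ratios between -0.79 and 0.45 with a median of 0.14, and 11 were above 0. The 37 dimmer extra probe sets had a median of -0.08, and their ratios ranged between 0.125 and 10.3. Over 3-fold higher in an eligible probe set was 1 member, against 8.69% of genes, and over 3-fold lower was 1, against 6.09%. The first was NDUFV1 in its dim second probe set, with 96.9 in GAS2DN and 28.1 in Venus cells, a ratio of 3.44, while its main probe set had 1.08. The second was NDUFS1 in its dimmest probe set, with 10.8 in GAS2DN and 86.3 in Venus cells, a ratio of 0.125, while its other 4 eligible probe sets lay between 0.636 and 1.09. In each of these the dimmer signal was below its array's median, and neither was left when the array median was required of both signals.

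**Figure D3:**
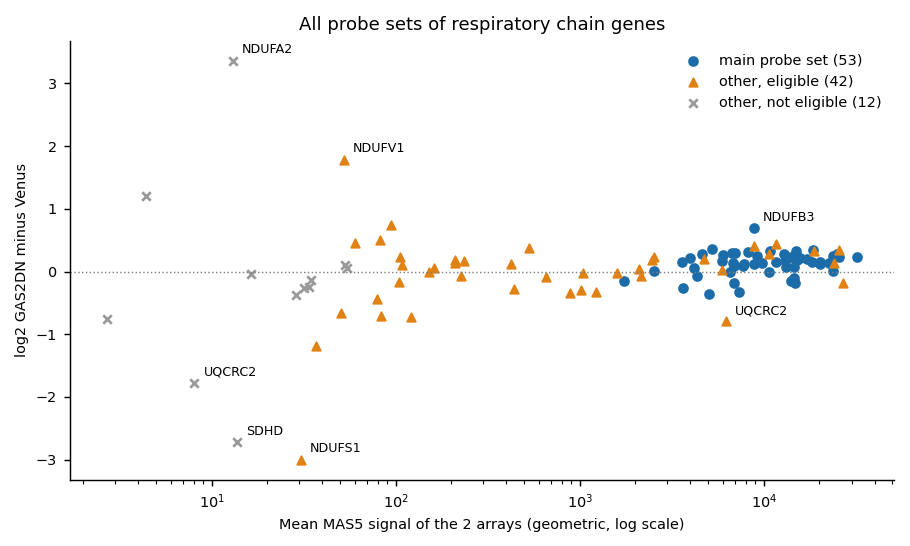
Log2 ratio (GAS2DN minus Venus) against geometric mean signal (log axis) for all 107 probe sets of members: main (circles, 53), other eligible (triangles, 42) and not eligible (crosses, 12). Main probe sets lie close to 0 at high signal, and ratios beyond 3-fold occur in dim probe sets only, such as a log2 ratio of 3.36 for NDUFA2 with 41.8 in GAS2DN and 4.06 in Venus cells.

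Of the 26 members with at least 2 eligible probe sets, 11 had all of them above 0, 1 had all below 0 and 14 had both signs in the authors' scaling. The member with all below 0 was NDUFV3. By the brightest eligible probe set other than the main one, 15 of 26 members were above the median of all genes. With names ending in _s_at or _x_at left out, 25 of 44 were above it, against 40 of 53 by the main probe set.

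The other genes of the pathway showed which neighbours had similar values. Of 17 measured genes of the ATP synthase list, which holds its subunits and the inhibitory factor ATP5IF1, 15 were above 0 and 14 above the median of all measured genes, with a median log2 ratio of 0.15, and none was over 1.5-fold either way. ATP5MC3, of the membrane rotor, had 29522 in GAS2DN and 23000 in Venus cells, a log2 ratio of 0.36, though 0.12 and -1.05 in its other probe sets. ATP5F1C had 0.53 in a dim main probe set and between 0.28 and 0.31 in 3 bright ones ending in _x_at. ATP5F1A, the alpha subunit, had 0.00. ATP5MG had -0.05 in its main probe set, though 0.28, 0.35 and 0.28 in 3 brighter ones ending in _x_at. CYCS, cytochrome c itself, had 30214 in GAS2DN and 26976 in Venus cells, a log2 ratio of 0.16, though -0.09 and -0.17 in its dimmer probe sets.

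Genes that build the complexes did not have the subunits' median. Assembly factors of complex I had a median of -0.07 over 16 genes, those of complexes II and III -0.12 over 10, and those of complex IV -0.01 over 23, with 7, 3 and 11 above 0 and 7, 2 and 10 above the median of all measured genes. All of these factors except LRPPRC had a mean signal below the members' median of 9781. Whether brightness bears on the difference in ratio was not tested. COA1 was at -1.45 with 123 in GAS2DN and 336 in Venus cells, though its brighter probe set, ending in _x_at, had 0.14. A dimmer eligible probe set of COA1 had -3.43, from 6.07 in GAS2DN and 65.2 in Venus cells. NDUFAF4, a complex I assembly factor, had -0.47, though 0.06 in its second probe set, and NDUFAF5 and NDUFAF2 led that list with 0.26 and 0.19, though NDUFAF5 had -0.29 in its second eligible probe set. SDHAF4 and LYRM7 were lowest among factors of complexes II and III with -0.76 and -0.29, though the other probe sets of LYRM7, all ending in _x_at, had -0.66, 0.15 and 0.32. In that list SDHAF1 and SDHAF2 were highest with 0.40 and 0.20, while the second probe set of SDHAF1 had 0.00. The copper chaperone COX17 had -0.80 from signals of 41.2 in GAS2DN and 71.8 in Venus cells, and COX20 had 2238 in GAS2DN and 3618 in Venus cells, a log2 ratio of -0.69, with -0.19 and 0.00 in its other probe sets. SURF1 and PET100 were highest with 0.34 and 0.30, though a dim probe set of SURF1 had -0.78.

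Among 15 measured regulators of mitochondrial gene expression 6 were above 0 and 5 above the median of all measured genes, with a median of -0.11. TFB2M, a transcription factor of the mitochondrial genome, had 2287 in GAS2DN and 6057 in Venus cells, a log2 ratio of -1.40 in its only eligible probe set. MTERF1 had -0.56. TFAM, which packages and transcribes mitochondrial DNA, had 2588 in GAS2DN and 3788 in Venus cells, a log2 ratio of -0.55, with -0.45, 0.00 and -0.44 in its other probe sets. Of the factors whose motifs were searched in the promoters, NRF1 had 503 in GAS2DN and 568 in Venus cells, a log2 ratio of -0.18, while 2 dimmer eligible probe sets had 0.71 and -0.01. YY1 and GABPA had 0.20 and 0.17, with 0.12 in the second probe set of GABPA and between -0.41 and 0.70 in 5 others of YY1. The genes of the mitochondrial genome itself were not analysed here, since 0 of 13 on the list had a single-gene probe set in the table used.

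The citric acid cycle and pyruvate dehydrogenase list had a median of 0.04 over 14 genes, with 9 above 0 and 6 above the median of all measured genes. CS, citrate synthase, was highest with 12416 in GAS2DN and 8495 in Venus cells, a log2 ratio of 0.55, followed by IDH3G with 0.23. SUCLG2 was lowest with -0.68, though 0.19 and -0.07 in 2 brighter probe sets ending in _x_at, and PDHB had -0.43, though 0.08 in its second. Other electron carriers and quinone synthesis genes had a median of 0.02 over 18, with 10 above 0 and 6 above the median of all measured genes. ETFDH, which feeds electrons of fatty acid oxidation to ubiquinone, had 862 in GAS2DN and 1374 in Venus cells, a log2 ratio of -0.67, and -0.68 in its second probe set. COQ4 had -0.47, though 0.08 in its second, while COQ6 and COQ3 had 0.51 and 0.20. Tissue-restricted isoforms of complex IV subunits were dim where measured. COX6B2, the testis form, had 71.6 in GAS2DN and 15.4 in Venus cells, COX6A2, the muscle form, had 110 in GAS2DN and 51.3 in Venus cells, and COX4I2, the lung form, had 58.0 in GAS2DN and 96.5 in Venus cells. The ubiquitous COX7A2L, a factor of supercomplex assembly, had 7527 in GAS2DN and 5957 in Venus cells, a log2 ratio of 0.34.

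**Figure D4:**
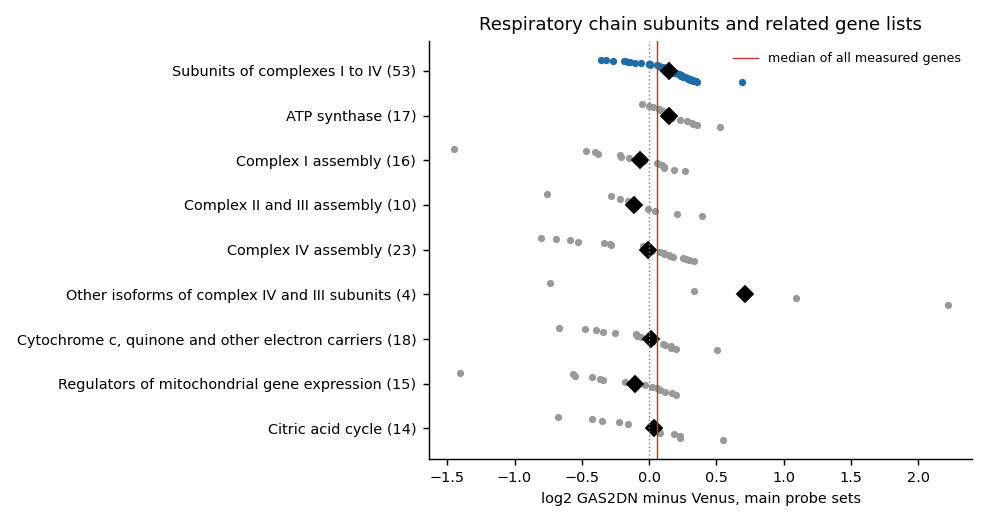
Log2 ratio (GAS2DN minus Venus) of the measured genes (points) and their median (diamonds) for the 53 subunits of complexes I to IV (blue) and 8 related lists (grey), with gene counts in brackets. The subunits and ATP synthase both have a median of 0.15, to the right of the red line that marks the median of all measured genes, 0.06, while the medians of the 3 assembly lists lie below 0.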

How the data were processed

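RNA of MEG-01 cells transduced with GAS2DN or Venus was measured on 1 Human U133 plus2.0 array per condition, each holding a pool of 3 extracts. The authors deposited log2 MAS5 signals, scaled to a 2% trimmed mean of 500.1 on both arrays. The submitters' processing notes name MAS5, and its version is not given in the sources used here. The values hold no detection calls. Of 54675 probe sets, 62 were controls, 41091 had 1 gene, 1801 several and 11721 none named here. Symbols were updated through the gene ID in RefSeq for 41037 probe sets. Members, gene lists and the rule for named genes were chosen with earlier results of these data known. Named were the 3 highest and 3 lowest genes of each complex, all of complex II, core subunits of complex I, CYC1, genes over 3-fold in an eligible probe set, and the 2 highest and 2 lowest of each other list. Others are examples picked with their values in view. The steps were tested on simulated data. The alternatives covered low signals and dim probe sets, the choice of probe set for a gene and the scaling by medians, by quantiles or by loess (span 0.2, 3 iterations). Tools were Python 3.11.15, pandas 2.3.3, numpy 2.4.6, scipy 1.17.1, matplotlib 3.10.9 and statsmodels 0.14.6.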

Additional observations from a re-analysis of the deposited data

How the results depend on the processing

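No paired analysis was possible because each condition had 1 array. Centring both arrays on the median of all probe sets turned the median log2 ratio to -0.16 over the members (0.15 as reported), -0.26 over all measured genes (0.06), -0.17 in complex I, -0.16 in complex III and -0.094 in complex IV, and moved complex II to -0.45; 5 of the 53 members were then above 0, 0 were over 1.5-fold higher and 2 lower, and 0 over 3-fold higher in an eligible probe set. After quantile normalization complex I had the highest median of the complexes, 0.12, against 0.10 in complex IV. The difference of members minus all measured genes kept its sign in every setting, between 0.05 and 0.13. By the brightest eligible probe set other than the main one, complex II had 0.24 (1 gene, by a name ending in _x_at) and complex III -0.24 (4 genes). By this choice 15 of 26 members were above the median of all genes, and 2 were over 1.5-fold higher and 3 lower. With names ending in _s_at or _x_at left out, 25 of 44 members were above it and 4 over 1.5-fold lower, and the 1 higher was NDUFB4 in a dim probe set, since NDUFB3 was not read. With the median over eligible probe sets 2 members were over 1.5-fold higher, NDUFB3 and NDUFV1, and with 2-fold as the limit 0 were. Over 3-fold in an eligible probe set, 0 members were higher and 0 lower with both signals at or above the array median, with the brighter signal at or above percentile 75, with the array median added and with low signals raised to it. After loess and after quantile normalization 0 were higher, and with no filter 2 were higher and 3 lower. The cause of these moves was not tested beyond the settings' own construction. The shares of all genes past 1.5-fold or 3-fold are not given for these settings. The members' counts there thus have no background beside them and are not read as results about the members. Against genes at least as bright as the dimmest member and against the brightest 10%, a comparison chosen after seeing the data, 40 members were again above the median. Signals over background could not be judged further without detection calls.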
